A study of Rattus norvegicus with 12 samples.

Results

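The proteasome genes of rat cells and of tumour-cell exosomes were followed across 12 Illumina expression arrays. The genes were chosen by name, as every gene on the array whose symbol begins with Psm, one of the letters a to g and a digit. This rule took 43 genes (44 probes, with 2 for Psmb10) of 13337 named genes. Of these, 42 encode parts of the proteasome, its activators or its assembly factors. The remaining one, Psmc3ip, carries the name of a proteasome subunit but encodes a factor of meiotic recombination, and it was not detected on any of the 12 arrays. The core groups were 8 alpha subunits, 3 immunoproteasome subunits and 8 other beta subunits, which are the constitutive ones and Psmb11. The other groups were 6 ATPases and 10 other subunits of the regulatory particle, 3 activators and 4 assembly factors.

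The study compared AS-Tspan8 with AS, a pancreas carcinoma line of the BDX rat. AS-Tspan8 is a derivative of AS with stable expression of tetraspanin 8 (Tspan8, also D6.1A or CO-029), a membrane protein found on exosomes. The labels do not say which promoter drives it or whether the line is 1 clone. Each line gave 1 array of whole cells and 2 arrays of exosomes, the small vesicles that cells release, taken from serum-free supernatants after 36 h of starvation. The recipients, called EC here, were endothelial cells from the aorta of BDX rats, kept in a medium with VEGF and starved overnight before treatment. They received AS-Tspan8 exosomes (2 arrays) or AS exosomes (2 arrays) at 10 µg/ml, or no exosomes (2 arrays), for 24 h in medium with 2% FCS. Nothing in the labels says that arrays of 1 group came from separate cultures, so a p-value covers the spread among these arrays alone, and that spread may be technical.

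The proteasome is the protease that degrades proteins marked with ubiquitin. Its core is a barrel of alpha rings, which gate the entrance, and beta rings, where Psmb5, Psmb6 and Psmb7 carry the chymotrypsin-like, caspase-like and trypsin-like activities. Interferon exchanges these for Psmb8, Psmb9 and Psmb10, which gives the immunoproteasome and a changed set of peptides for antigen presentation. The regulatory particle binds ubiquitin chains and unfolds substrates with its ATPases (Psmc genes), while Psme1 and Psme2 form an activator that interferon also induces.

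The bases upstream of 4 of these genes are shown, namely the 3 interferon-linked genes that held a match to an interferon motif and Psmb5, the counterpart of Psmb8. They come from RefSeq (GRCr8), where 39 of the 43 genes had an entry, and run 5′ to 3′ on the gene's strand over the 250 bases before its start. Psmb8 lies at chr20:4657032-4657281, Psmb10 at chr19:50743293-50743542, Psmb5 at chr15:32047380-32047629 and Psme2 at chr15:33052752-33053001, all on the minus strand. Capitals mark matches to the motifs named after the sequences.
Psmb8: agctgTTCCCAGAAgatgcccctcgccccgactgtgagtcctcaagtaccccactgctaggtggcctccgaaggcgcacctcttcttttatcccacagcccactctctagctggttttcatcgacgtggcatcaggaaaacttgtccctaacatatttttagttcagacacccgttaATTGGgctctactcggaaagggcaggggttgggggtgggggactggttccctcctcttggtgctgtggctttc
Psmb10: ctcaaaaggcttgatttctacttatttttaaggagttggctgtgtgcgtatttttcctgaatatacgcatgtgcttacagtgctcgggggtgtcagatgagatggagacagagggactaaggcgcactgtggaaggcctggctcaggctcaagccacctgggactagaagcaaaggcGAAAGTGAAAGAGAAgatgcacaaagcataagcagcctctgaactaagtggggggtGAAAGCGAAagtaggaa
Psme2: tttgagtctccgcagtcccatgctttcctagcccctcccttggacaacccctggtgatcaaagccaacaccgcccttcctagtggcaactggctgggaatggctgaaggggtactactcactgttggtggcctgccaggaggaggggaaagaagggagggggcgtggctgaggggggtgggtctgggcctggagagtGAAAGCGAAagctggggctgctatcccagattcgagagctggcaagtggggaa
Psmb5: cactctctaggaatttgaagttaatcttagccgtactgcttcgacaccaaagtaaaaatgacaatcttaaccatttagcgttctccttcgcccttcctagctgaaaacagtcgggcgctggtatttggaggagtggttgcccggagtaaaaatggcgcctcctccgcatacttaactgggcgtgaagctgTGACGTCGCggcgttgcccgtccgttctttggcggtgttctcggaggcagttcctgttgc

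Motifs were searched on both strands over 300 bases, which end 50 bases inside the gene. The core of the interferon-stimulated response element, GAAANNGAA, occurred in 8 of the 39 promoters (20.51%) and in 9.713% of all 33469 promoters in the table. The 39 include that of Psmc3ip, which is no proteasome gene and is counted below for the ETS core and CCAAT. Psmb10 held 3 matches, of which 2 overlap each other, and Psme2 held 1. The other promoters with a match, beside that of Psmb8, were those of 5 genes, Psma4, Psmb2, Psmb3, Psmd7 and Psmd11. The match of Psmb8 begins 3 bases before the start and runs past the printed bases. The gamma-activated site, TTCNNNGAA, occurred in 4 promoters (8.874% of all), those of Psmb8, Psmc6, Psmd3 and Psmd7. Psmb9 and Psme1, which are interferon-linked too, held neither motif in this window. The antioxidant response element core, TGACNNNGC, occurred in 8 promoters (12.06% of all), with Psmb5 and Psmb6 among them. The ETS core CCGGAAG occurred in 14 promoters (35.9%), against 8.745% of all. CCAAT, which Psmb8 holds as its complement, occurred in 18 promoters, or 46.15%, and in 37.49% of all. These are matches of letters and not sites of binding.

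Tspan8 itself matched the labels of the cells, with a signal of 2036 in AS-Tspan8 cells, where it was detected, against 75.1 in AS cells, where it was not. It was not detected on any exosome or EC array. Detected means here that the deposited detection p-value is under 0.01. The summed signal was 21955879.6 in AS-Tspan8 cells and 13714493 in AS cells, 2390577 to 2924133 on the 4 exosome arrays, and 10383649.6 to 12705558 on the 6 EC arrays. In EC, 3 of 15 endothelial markers with a probe reached detection on every array and 11 on no array, while 12 of 14 fibroblast markers reached it on every array. Of 12 leukocyte markers, 1 reached it on every EC array and 11 on no EC array. The cells labelled endothelial are therefore called EC throughout. AS exosomes replicate 2 stood apart from its replicate, with a correlation of 0.794 over all features, against 0.921 between the AS-Tspan8 exosome arrays and 0.972 to 0.986 within the EC groups.

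Most proteasome genes were expressed in all cells. In both tumour lines 39 of the 43 genes were detected, against 48.6% of all named genes. On the 6 EC arrays 36 genes were detected throughout, against 45.4% of named genes, and Psma1, an alpha subunit, was detected on 4 of the 6. The genes not detected in any cells were Psma8, in mouse a testis form of an alpha subunit, Psmb11, in mouse the beta subunit of the thymus, Psmc6, an ATPase, and Psmc3ip. Psma3 (alpha subunit) and Psmd8 (regulatory particle) were detected in the tumour lines only, with signals of 118 in AS-Tspan8 cells and 97.0 in AS cells for Psma3, and of 115 and 91.2 for Psmd8. On the EC arrays Psma3 had 71.7 to 84.0 and Psmd8 66.7 to 87.2. Psmb9 was near the limit of detection in all cells, with 215 in AS-Tspan8 cells, 116 in AS cells and 86.2 to 124 on the EC arrays. The plot of signals before normalization shows all genes on all arrays.

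**Figure D1:**
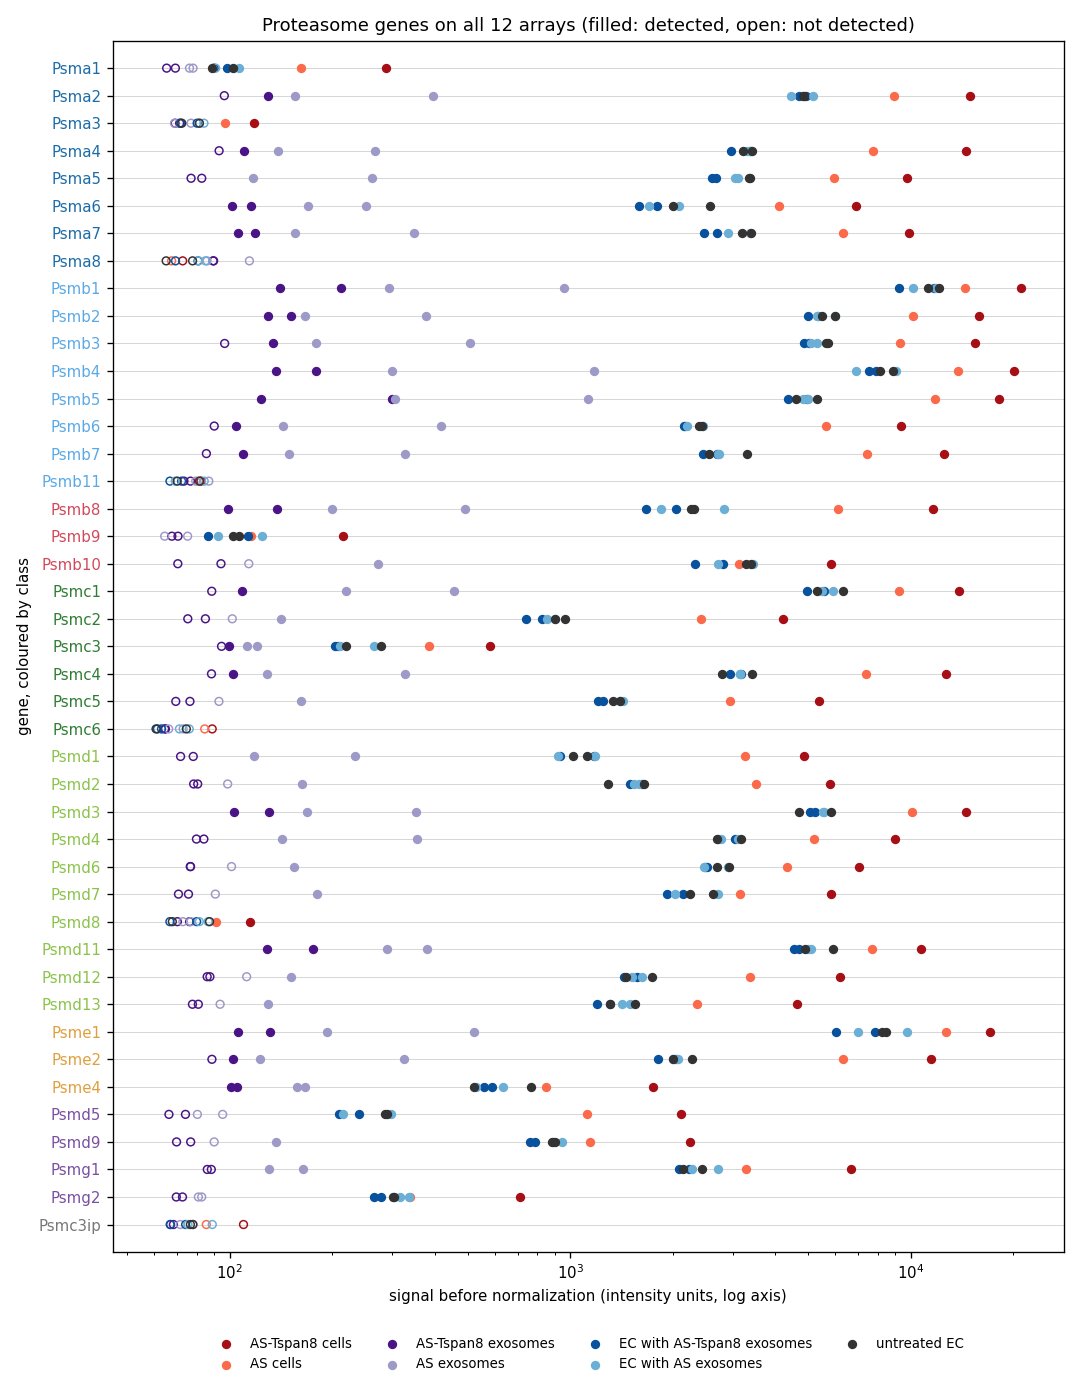
Signal before normalization (intensity units, log axis) of the 43 genes on each of the 12 arrays, with the brighter probe for Psmb10; filled points are detected and open points are not. AS-Tspan8 cells have the highest signal of each of the 39 genes detected there, such as 11592 for Psmb8, and the exosome arrays have the lowest of most genes.

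Proteasome genes were higher in the tumour lines than in untreated EC. After quantile normalization of the 8 cell arrays, 36 of the 39 genes tested were higher on average in the 2 tumour lines. Of these, 22 passed an adjusted p of 0.05 (limma, Benjamini-Hochberg over 9972 features), where 29.1% of all features were called higher. No proteasome gene was called lower, where 24.8% of features were. The median log2 difference of the 39 genes was 0.51, against 0.01 over all features. Psma3 and Psmd8 were detected in the tumour lines only and passed the filter through them, so their direction was largely fixed by the filter. Tissue of origin, cell type and culture differ together between these groups and cannot be told apart, and the lines have 1 array each, assumed to vary like EC arrays.

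Most core subunits rose in the tumour lines. Of the alpha subunits, 6 of 7 tested (with Psma3, which no EC array detected, among the 7) were called higher. The differences over the 7 ran from 0.45 to 1.20. Psma1 had the highest, with 288 in AS-Tspan8 cells and 162 in AS cells, against 88.7 and 102 in untreated EC. Both lines lay above both EC arrays, and the normalized difference was 1.20 ± 0.23 on the log2 scale (SE, adjusted p = 0.00621). Of the constitutive beta subunits, 6 of 7 were called higher, including the 3 catalytic ones. Psmb5 had 18109 in AS-Tspan8 cells and 11810.4 in AS cells, against 4586 and 5287 in untreated EC, a difference of 1.05 ± 0.19 (adjusted p = 0.00489). Psmb7 had 12539 and 7462 in the same lines, against 2552 and 3293 in untreated EC, a difference of 1.05 ± 0.19 (adjusted p = 0.00508). Psmb6 had 9387 and 5636 in the tumour lines, against 2382 and 2439.8 in untreated EC. Its difference was 0.83 ± 0.15 (adjusted p = 0.00498), so all catalytic subunits were about 1.78 to 2.07 times higher in the tumour lines.

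Of the 3 immunoproteasome subunits, 1 was called higher. Psmb8, the counterpart of Psmb5, had 11592 in AS-Tspan8 cells and 6129 in AS cells, against 2312 and 2256 in untreated EC. It rose by 1.16 ± 0.19 on the log2 scale (SE, adjusted p = 0.00361), which is 2.24-fold. Psmb10, the counterpart of Psmb7 and the gene with the response element matches printed above, had 5846 and 3135 in the tumour lines, against 3389 and 3286 in untreated EC. After normalization both lines lay below all 6 EC arrays, with a difference of -0.41 ± 0.15 that missed the threshold (adjusted p = 0.0639). It was called lower without background correction (adjusted p = 0.028), without the filter on dim probes (0.034) and in the deposited processed values (0.025), and turned to 0.23 with median scaling and to 0.36 without scaling. The second probe of Psmb10 gave -0.32. Psmb9, the counterpart of Psmb6, differed by 0.22 ± 0.35 (adjusted p = 0.615), but was called higher with median scaling (0.81, adjusted p = 0.0476) and without scaling (0.94, adjusted p = 0.0264).

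In the regulatory particle, 3 of 5 ATPases tested and 4 of 10 other subunits were called higher and none lower. The 10 include Psmd8, which no EC array detected. Psmd1, a scaffold of the particle, differed by 1.11, and Psmc4, an ATPase, by 0.97. The subunits Psmd7 and Psmd11 differed by 0.05 and 0.06 and were not called. Of the activators, Psme2 had 11472 in AS-Tspan8 cells and 6302 in AS cells, against 2001 and 2275 in untreated EC, and rose by 1.27 ± 0.18 (SE, adjusted p = 0.00208). Psme1, its partner in the same activator, had 17031 and 12657 in the tumour lines, against 8251 and 8484 in untreated EC. Its normalized difference was 0.36 ± 0.16 (adjusted p = 0.106), and it passed with median scaling, without scaling and in the deposited processed values (adjusted p = 0.0496). Psme4, which forms a separate activator, differed by 0.09.

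Of the 4 assembly factors, 1 was called higher. Psmd5, a chaperone of the regulatory particle, had 2118 in AS-Tspan8 cells and 1118 in AS cells, against 289 and 287 in untreated EC. Its difference of 1.76 ± 0.21 (SE, adjusted p = 0.00105) was the highest of the 39 genes tested. Psmd9, which helps to assemble the same particle, differed by -0.03, and Psmg1 and Psmg2, which pair as chaperones of the alpha ring, by 0.25 and -0.08. Set against all 6 EC arrays in place of the untreated pair, both tumour lines lay above every array for 30 of the 39 genes (35.4% of features), and below every array for 1, Psmb10 (32.6% of features). Without untreated EC replicate 1, and likewise without replicate 2, 11 genes were called higher in place of 22, where 22.3% and 21.1% of features were. With median scaling 37 were called higher (53.0% of features) and with no scaling 38 (55.8% of features), as the median of all features moved to 0.65 and 0.78.

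**Figure D2:**
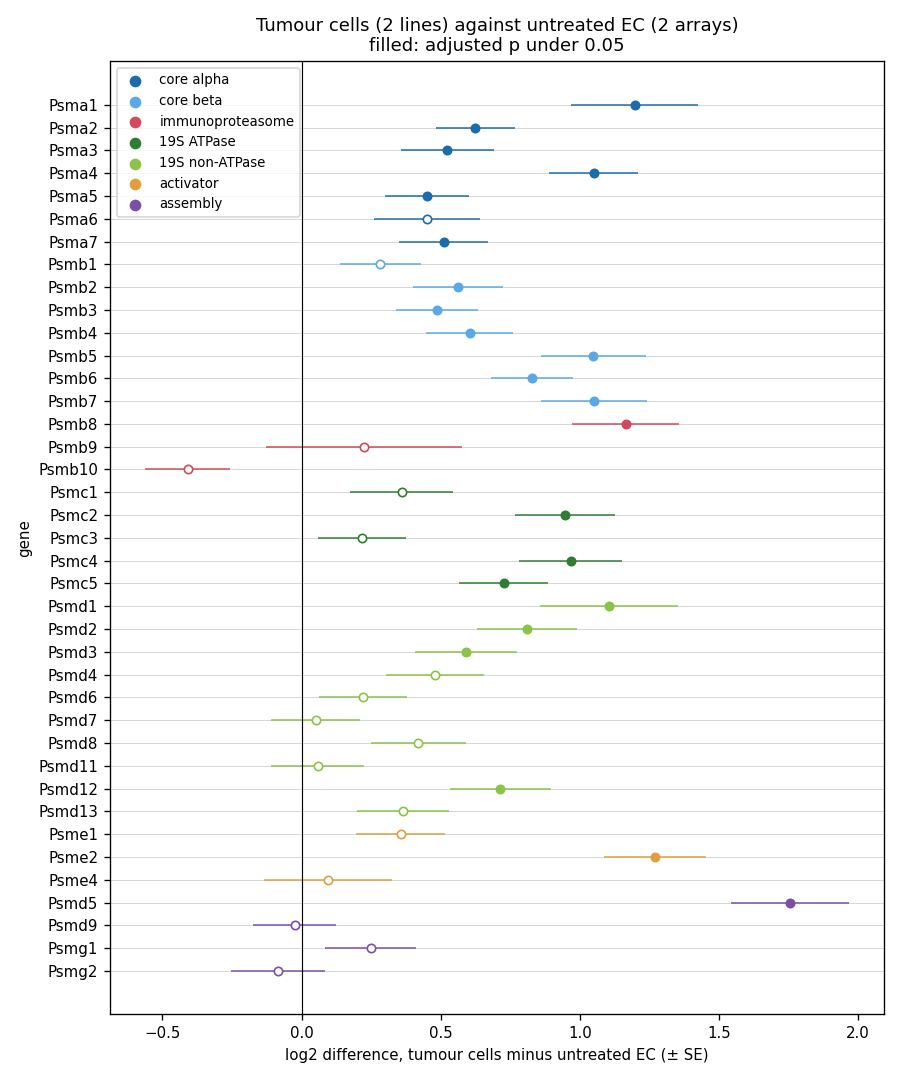
Log2 difference (tumour cells minus untreated EC, ± SE) of the 39 proteasome genes tested, coloured by class, with filled points at adjusted p under 0.05. Psmd5 stands at 1.76, most core subunits lie between 0.45 and 1.20, and Psmb10 lies at -0.41.

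Between the tumour lines the proteasome genes were close. No gene reached a log2 difference of 1 between AS-Tspan8 and AS cells, where 4.66% of all features did. The differences, each of 1 array against 1 and with no replicate check, ran from -0.31 for Psmd1 and -0.29 for Psmc3 (an ATPase) to 0.19 for Psma4 (an alpha subunit) and 0.31 for Psmb9. The catalytic subunits differed by -0.05 for Psmb5, -0.08 for Psmb6 and 0.02 for Psmb7, and the immune genes by 0.16 for Psmb8, 0.02 for Psmb10, -0.26 for Psme1 and 0.12 for Psme2. Before normalization all 39 detected genes were brighter in AS-Tspan8 cells. Without scaling 6 genes were higher by at least 1, where 34.3% of features were, with a median of 0.75 over the 39 genes and 0.84 over all features.

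Proteasome transcripts were among those measured in exosomes. AS-Tspan8 exosomes had 20 of 43 genes detected on replicate 1 (46.5%, against 10.3% of named genes) and 11 on replicate 2 (25.6%, against 8.30%). AS exosomes had 24 on replicate 1 (55.8%, against 11.4%) and 33 on replicate 2 (76.7%, against 19.4%). On all 4 arrays 11 genes were detected, where 6.37% of named genes were. They were the alpha subunits Psma6 and Psma7, the constitutive beta subunits Psmb1, Psmb2, Psmb4 and Psmb5, the immune subunit Psmb8, the regulatory subunits Psmd3 and Psmd11, and the activator genes Psme1 and Psme4. No assembly factor was detected on an AS-Tspan8 exosome array, and of the 4, only Psmg1 was detected on both AS exosome arrays. On no exosome array were 10 genes detected, with Psmb9 among them. The median signal over the 44 probes was 6420.5 in AS-Tspan8 cells and 3445 in AS cells, and the part of this level in the shares detected in exosomes was not tested.

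**Figure D3:**
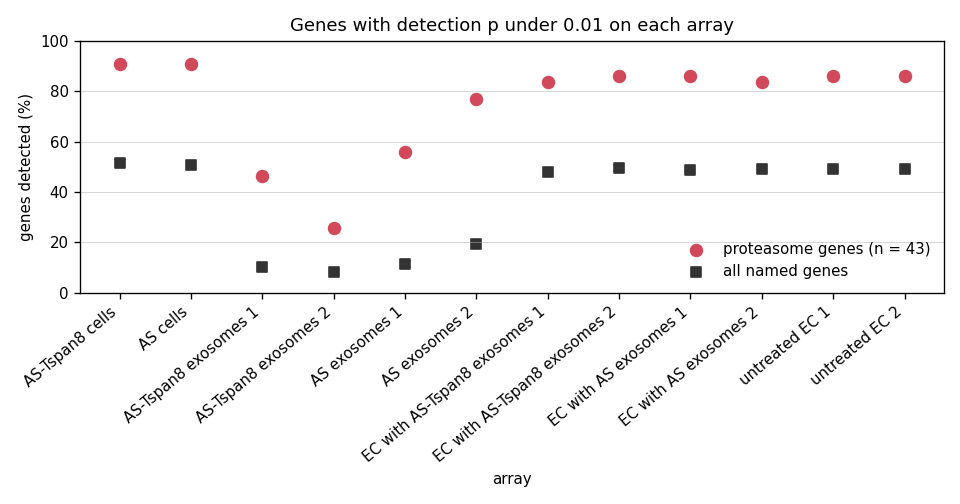
Share of genes (percent) with a detection p-value under 0.01 on each array, for the 43 proteasome genes (circles) and all named genes (squares). The proteasome share is above that of all named genes on all 12 arrays, and on the exosome arrays it ranges from 25.6% to 76.7%.

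The proteasome signals of exosomes were far below those of the cells. Psmb5 had 299 and 124 in AS-Tspan8 exosomes, against 306 and 1129.6 in AS exosomes. Psmb4, a structural beta subunit, had 179 and 137 in AS-Tspan8 exosomes, against 299 and 1173 in AS exosomes. Psmb1, also structural, had 212 and 140.1, against 294 and 956. In each case AS exosomes replicate 2 was the brightest array and AS-Tspan8 exosomes replicate 2 the dimmest. Psmb8 had 138 and 98.8 in AS-Tspan8 exosomes, against 200.1 and 491 in AS exosomes. Psme1 had 131 and 106 in AS-Tspan8 exosomes, against 193 and 520.0 in AS exosomes. Psmb10 had 94.2 and 70.4 in AS-Tspan8 exosomes, against 114 and 273 in AS exosomes, and was detected on the last of these arrays alone.

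The other genes detected on all 4 arrays had a narrower range. Psmb2, a structural beta subunit, had 151 and 129.7 in AS-Tspan8 exosomes, against 166 and 378 in AS exosomes. Psma6 had 115 and 101, against 170.0 and 252, and Psma7 had 119 and 106, against 155 and 349. For these alpha subunits both AS arrays lay above both AS-Tspan8 arrays before normalization. After normalization 2 of the 7 alpha subunits tested lay so, namely Psma5 and Psma6 but not Psma7, where 24.7% of features did. In the regulatory particle Psmd3 had 130.2 and 103 in AS-Tspan8 exosomes, against 169 and 351 in AS exosomes. Psmd11 had 175 and 129, against 289.6 and 379. Psme4 had 105 and 100.5, against 157 and 166, the smallest gap between the AS replicates among the 11 genes. The catalytic subunits Psmb6 and Psmb7, and Psme2, were each detected on 3 of the 4 arrays and missed on AS-Tspan8 exosomes replicate 2. Psmb6 had 105 and 90.0 in AS-Tspan8 exosomes, against 143 and 418 in AS exosomes. Psmb7 had 109 and 85.4, against 149 and 328, and Psme2 had 102 and 88.6, against 123 and 325. For all of these the AS arrays lay above the AS-Tspan8 arrays before normalization. Summed over all probes, the AS exosome arrays were brighter too, with 2696800 and 2924133 against 2390577 and 2413936. The share of all features that lay so before normalization was not counted.

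**Figure D4:**
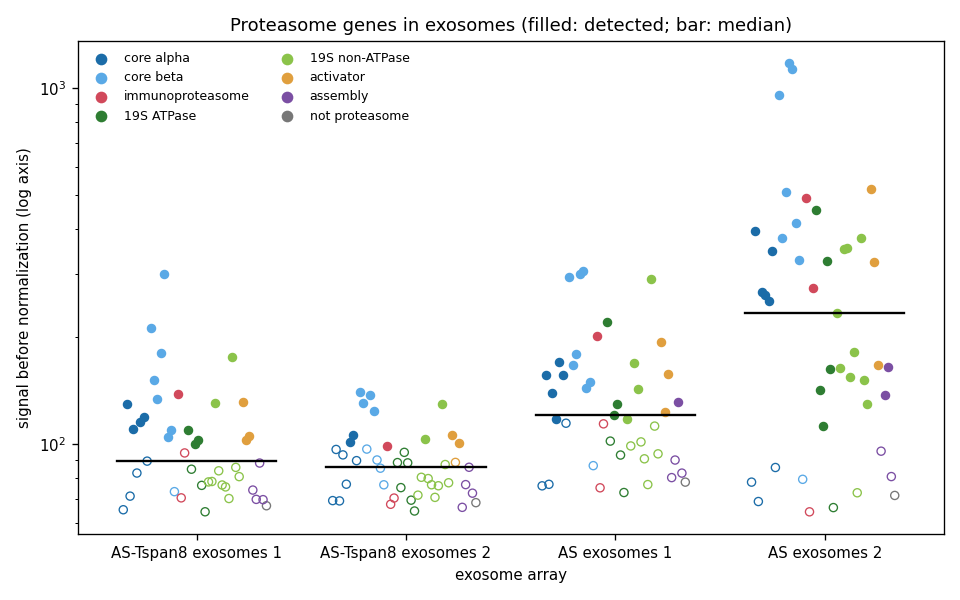
Signal before normalization (log axis) of the 43 proteasome genes on each exosome array, coloured by class, with filled points for detected genes and a bar at the median. The detected genes number 20 and 11 in AS-Tspan8 exosomes and 24 and 33 in AS exosomes, and the spread is widest on AS exosomes replicate 2, where Psmb4 reaches 1173.

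AS-Tspan8 exosomes had lower proteasome signals than AS exosomes, but no gene passed the test. Of 39 genes tested (6 tumour arrays normalized together), 35 were lower and 4 higher, with a median log2 difference of -1.12, against -0.09 over all features. None was called, as was no feature of 9434 (0%) with limma, where 618 features and 5 proteasome genes had an unadjusted p under 0.05. The groups did not overlap for 21 genes that were lower (24.7% of features) and for 1, Psmd8, that was higher (15.4%). Psmd8 was not detected on any of these arrays. Neither AS-Tspan8 exosome array detected 23 of the 43 genes. They include 8 of the 10 regulatory subunits that are no ATPases and all 4 assembly factors. These classes gave 7 and 3 of the 21 lower genes. The median and the lower genes therefore rest in part on signals not above background. The result leans on single arrays, since within AS exosomes replicate 2 exceeded replicate 1 for 35 of the 39 genes, by a median of 1.17. Without AS exosomes replicate 2 the median difference was -0.47, with 6 genes higher and 33 lower. Without AS-Tspan8 exosomes replicate 2 it was -0.65, and without replicate 1 of either group it was -1.65 (AS-Tspan8) and -1.62 (AS).

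In this comparison 5 genes had an unadjusted p under 0.05 (limma). They were 3 regulatory subunits other than ATPases, 1 assembly factor and 1 alpha subunit, and none was called. Psmd1 had 78.1 and 71.7 in AS-Tspan8 exosomes, neither of them detected, against 118 and 232 in AS exosomes. Bounds are taken here on the quantile-normalized scale, where the lowest detected level was 9.15 and 9.36 (log2) on the AS-Tspan8 exosome arrays. As a bound Psmd1 was at least 1.45-fold lower (adjusted p = 0.693). It was called only when features had to be detected on every array of a group (adjusted p = 0.018), where 0.34% of features were called lower. Psmd1 passed that filter through the AS exosomes alone, where it was brighter, so the filter favoured this direction. Psmg1 had 88.3 and 85.9 in AS-Tspan8 exosomes, not detected, against 131 and 164 in AS exosomes, at least 1.32-fold lower (adjusted p = 0.693). The bound was at least 2.33-fold for Psmd4, a ubiquitin receptor, and at least 1.55-fold for Psma5, an alpha subunit, neither called. Among the 4 genes that were higher after normalization, Psmc3 (0.38 ± 0.32, adjusted p = 0.759) and the undetected Psmd8 had the lowest p. Before normalization Psmc3 had 99.7 and 94.6 in AS-Tspan8 exosomes, against 120.4 and 112 in AS exosomes. For Psmb8 the difference was -1.12 ± 0.65 (adjusted p = 0.759) and for Psmb5 -0.78 ± 0.77 (adjusted p = 0.77). It was -1.48 ± 0.83 for Psmb6, -1.66 ± 0.98 for Psmb7, -1.005 ± 0.58 for Psme1 and -1.21 ± 0.91 for Psme2 (adjusted p = 0.759 each). Psmb10 was at least 1.51-fold lower (adjusted p = 0.759), with detection on 1 of 2 AS exosome arrays. Psmb9 was not detected on any of the 4 arrays, with signals of 64.4 to 75.2.

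Against the cells that released them, exosomes had lower proteasome signals. All 39 genes tested were detected in both tumour lines, and 11 on all 4 exosome arrays. A gene could pass the filter through the cells alone, so the filter favoured genes high in cells, here and among all features. The direction by itself is therefore no test. With the line as a term in the fit, 37 of 39 genes were lower and 2 higher, with a median log2 difference of -1.82, against -1.22 over all features. Of these, 13 were called lower, where 41% of features were, and 2 higher, where 16% were. The regulatory subunits Psmd6 (-3.73 ± 0.89, SE, adjusted p = 0.0268), Psmd2 (-3.08 ± 0.84, adjusted p = 0.0374) and Psmd13 (-2.99 ± 0.88, adjusted p = 0.0449) were among those called. Each of them was detected on 1 of the 4 exosome arrays, an AS array, so these sizes rest mostly on signals not above background. Psmd6 had 76.6 and 76.7 in AS-Tspan8 exosomes against 7044 in AS-Tspan8 cells, and 101 and 154 in AS exosomes against 4344 in AS cells. Psmd5 was called as well (adjusted p = 0.0290) and was not detected on any exosome array. It had 74.1 and 66.3 in AS-Tspan8 exosomes against 2118 in AS-Tspan8 cells, and 80.3 and 95.3 in AS exosomes against 1118 in AS cells. After quantile normalization its level in cells was 9.11 (log2) and the lowest detected level on the exosome arrays was 8.16 to 9.36, so the bound on that scale was at least 1.15-fold lower.

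Among the genes named throughout, Psme1 was called lower (-1.81 ± 0.47, SE, adjusted p = 0.0323). Psmb9 was called as well (adjusted p = 0.0103), but it was detected on no exosome array and passed the filter through the cells alone. Its p therefore sets cell signal against background and gives no size. Psmb5 (-0.94 ± 0.60, adjusted p = 0.22), Psmb8 (-1.09 ± 0.57, adjusted p = 0.16), Psmb6 (-1.51 ± 0.70, adjusted p = 0.125) and Psmb7 (-2.12 ± 0.82, adjusted p = 0.0843) were not called. Neither were Psme2 (-2.04 ± 0.74, adjusted p = 0.0724) and Psmb10 (-2.22 ± 1.58, adjusted p = 0.265), the last detected on 1 exosome array. Without AS exosomes replicate 2, Psmb6 (adjusted p = 0.0253) and Psme2 (adjusted p = 0.0151) were called lower. Psmc3 (1.67 ± 0.30, adjusted p = 0.0125) and Psme4 (0.99 ± 0.21, adjusted p = 0.0193) were called higher after quantile normalization, but were -3.03 and -3.99 with median scaling and -3.19 and -4.16 without scaling. Their signals before normalization were lower in exosomes, for Psmc3 94.6 to 120.4 in exosomes against 579 in AS-Tspan8 cells and 385 in AS cells. For Psme4 they were 100.5 to 166 in exosomes against 1754 in AS-Tspan8 cells and 846 in AS cells.

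These counts depended on the scaling and on single arrays. With median scaling all 39 genes were called lower, where 87.4% of features were and their median was -3.46. Without scaling 38 were, where 86.5% of features were and their median was -3.63. Without AS exosomes replicate 2 the calls were 27 lower and 2 higher (54.6% and 19.2% of features). They were 5 and 1 without AS exosomes replicate 1 (30.3% and 13.3%). Without AS-Tspan8 exosomes replicate 1 they were 3 and 1 (26.4% and 12.5%), and likewise without replicate 2 (27.2% and 12.5%). Psmd6, Psmd5, Psmd2, Psmd13, Psme1 and Psme4 lost their calls without any one of these last 3 arrays, with adjusted p from 0.0533 to 0.0992. Within the lines, AS-Tspan8 exosomes against AS-Tspan8 cells gave 6 genes called lower and 1 higher, where 23.9% and 10.9% of features were. AS exosomes against AS cells gave 2 called lower and 0 higher, where 18.9% and 7.3% of features were. The difference between the lines in this contrast was called for no gene and for 0% of features, while 305 features had an unadjusted p under 0.05 (limma).

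No proteasome gene was called changed in EC given exosomes. None of the 37 genes tested passed in any of the 3 comparisons, and neither did any of 9025 features (0% in each). For proteasome genes no unadjusted p was under 0.05 (limma), while 116 features had one with AS-Tspan8 exosomes against untreated EC, 62 with AS exosomes against untreated EC and 51 between the exosome groups. With AS-Tspan8 exosomes, 16 genes were higher and 21 lower than in untreated EC, with a median log2 difference of -0.02 and a range from -0.30 to 0.24. With AS exosomes, 13 were higher and 24 lower, with a median of -0.03 and a range from -0.27 to 0.13. Both comparisons share the untreated arrays. Between EC with AS-Tspan8 exosomes and EC with AS exosomes the median was 0.02 and the range -0.17 to 0.22.

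For some proteasome genes the arrays of both groups did not overlap. With AS-Tspan8 exosomes against untreated EC, 8 of the 37 genes lay lower (12.1% of features) and 2 higher (13% of features). With AS exosomes against untreated EC, 3 lay lower (12.5%) and 0 higher (10.7%), and between the exosome groups 4 lay lower (7.97%) and 1 higher (9.75%). The 8 lower genes included Psmb8 and Psmb10. Psmb8 had 2041 and 1669.9 in EC with AS-Tspan8 exosomes and 2819.8 and 1842 in EC with AS exosomes, against 2312 and 2256 in untreated EC. Its differences were -0.18 ± 0.20 with AS-Tspan8 exosomes and 0.00 ± 0.20 with AS exosomes. Psmb10 had 2806 and 2330.0 in EC with AS-Tspan8 exosomes and 3442 and 2716 in EC with AS exosomes, against 3389 and 3286 in untreated EC. Its differences were -0.22 ± 0.16 and -0.10 ± 0.16, and the second probe gave -0.19 and -0.15.

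Among the lower genes, Psma6 and Psmd5 had the lowest p in each comparison with untreated EC, which share those arrays. Psma6 had 1797 and 1593 in EC with AS-Tspan8 exosomes and 2089.7 and 1702 in EC with AS exosomes, against 2571 and 2006 in untreated EC. Psmd5 had 239 and 209.9 in EC with AS-Tspan8 exosomes and 297 and 215 in EC with AS exosomes, against 289 and 287 in untreated EC. The differences with AS-Tspan8 exosomes were -0.29 ± 0.20 for Psma6 and -0.30 ± 0.21 for Psmd5, and with AS exosomes -0.27 ± 0.20 and -0.23 ± 0.21. On the higher side were Psmd2 (0.24 ± 0.19) and Psmc4 (0.16 ± 0.19) with AS-Tspan8 exosomes, and Psmg1 and Psmg2 (0.13 ± 0.17 each) with AS exosomes. Between the exosome groups Psma1 (0.22 ± 0.21) and Psma2 (0.15 ± 0.15) had the lowest p on the higher side, and Psma7 (-0.16 ± 0.17) and Psmg2 (-0.16 ± 0.17) on the lower side, while Psmb8 had the lowest difference (-0.17 ± 0.20). None of these passed the test.

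The remaining genes named throughout were not called either. Psmb5 had 4355 and 4956 in EC with AS-Tspan8 exosomes and 4823 and 4998 in EC with AS exosomes, against 4586 and 5287 in untreated EC. Psmb6 had 2154 and 2173 in EC with AS-Tspan8 exosomes and 2445 and 2205 in EC with AS exosomes, against 2382 and 2439.8 in untreated EC. Psmb7 had 2446 and 2689 in EC with AS-Tspan8 exosomes and 2722 and 2739 in EC with AS exosomes, against 2552 and 3293 in untreated EC. All differences of these catalytic subunits from untreated EC lay between -0.07 and 0.05 after normalization. Psme1 had 7863 and 6040.0 in EC with AS-Tspan8 exosomes and 9744 and 7017 in EC with AS exosomes, against 8251 and 8484 in untreated EC. Psme2 had 1809 and 2046 in EC with AS-Tspan8 exosomes and 1998 and 2072 in EC with AS exosomes, against 2001 and 2275 in untreated EC. Psmb9 had 113 and 86.2 in EC with AS-Tspan8 exosomes and 124 and 92.4 in EC with AS exosomes, against 102 and 106 in untreated EC. Near the limit of detection it varied widely, with a log2 difference of -0.57 between the untreated replicates (2 minus 1, 8 cell arrays normalized together).

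**Figure D5:**
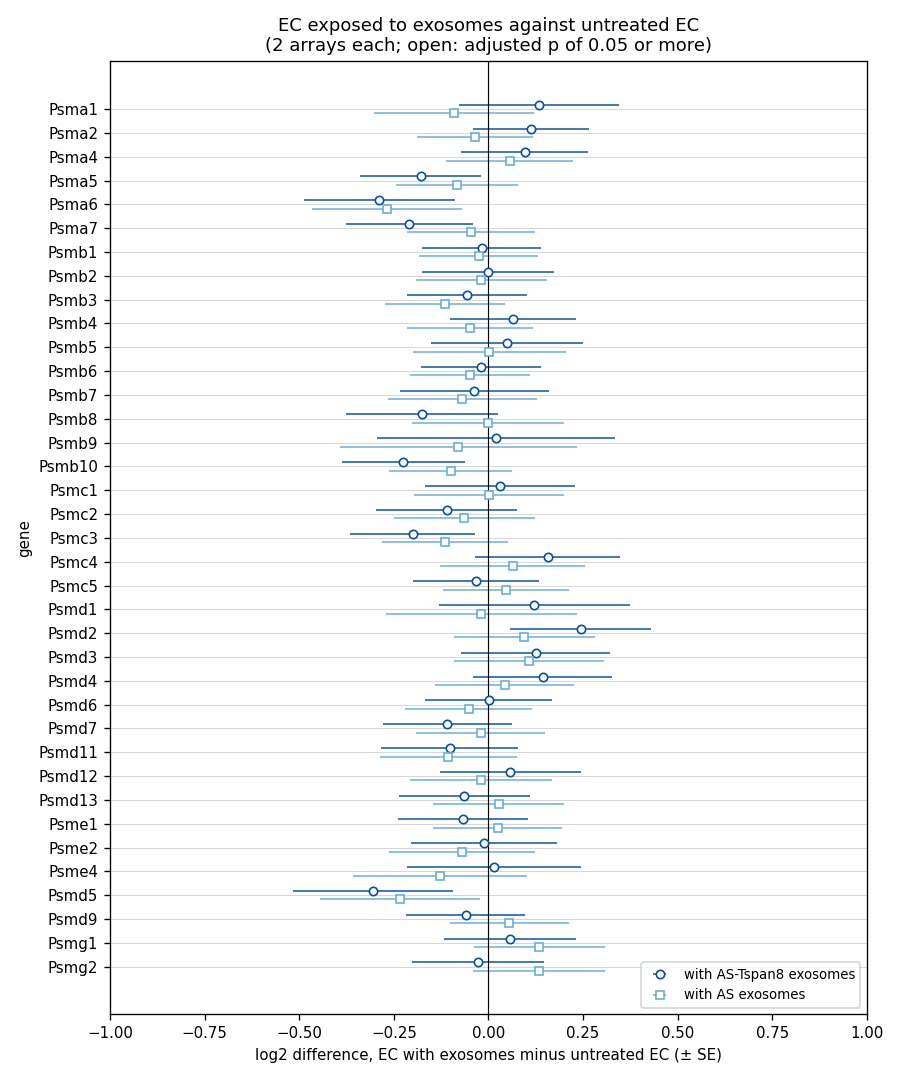
Log2 difference (EC with AS-Tspan8 exosomes, circles, or with AS exosomes, squares, minus untreated EC, ± SE) of the 37 proteasome genes tested. All points lie between -0.30 and 0.24, and none passed an adjusted p of 0.05.

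Genes that work with the proteasome were set beside it in the contrast of tumour cells with untreated EC, in which 29.1% of all features were called higher and 24.8% lower. Of 16 tested genes for proteasome cofactors and shuttles, 5 were called higher and 2 lower, with a median of 0.36. Uchl5, a deubiquitinase of the regulatory particle, rose by 2.32 ± 0.28 (SE, adjusted p = 0.0011). Ubqln1, which carries ubiquitinated proteins to the proteasome, rose by 1.13 ± 0.18 (adjusted p = 0.0031), and Nfe2l2, a regulator of antioxidant genes, fell by 0.58 on the log2 scale (adjusted p = 0.042). Of 15 ubiquitin genes and enzymes, 5 were called higher and 3 lower. Uba6, an activating enzyme for ubiquitin, rose by 1.85 ± 0.19 (adjusted p = 0.00059), and Ube2g2, a conjugating enzyme, fell by 1.80 (adjusted p = 0.00037). Uchl1 was not detected on any EC array, with signals up to 68.9, and had 414 to 857 in the tumour lines (adjusted p = 1.2e-05). Uchl1 is among the 5 called higher but passed the filter through the tumour lines alone. Its direction was thus largely fixed by the filter, and its p sets cell signal against background.

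Of 10 genes of antigen processing, 4 were called higher and 1 lower in the same contrast (29.1% and 24.8% of features), with a median of 0.05. The class I genes RT1-CE5 (1.41 ± 0.21, SE, adjusted p = 0.0024) and RT1-A2 (1.79 ± 0.35, adjusted p = 0.0067) were higher, while Irf1, an interferon-induced transcription factor, was lower (-1.16 ± 0.21, adjusted p = 0.0057). Of 12 interferon-response genes, 5 were called higher and 3 lower. Oas1a and Mx1, antiviral genes, were not detected on any EC array and were detected in both tumour lines (adjusted p = 4.7e-05 and 0.00025). Both are among the 5 called higher but passed the filter through the tumour lines alone. Their direction was thus largely fixed by the filter, and each p sets cell signal against background. Ifi47, an interferon-inducible GTPase gene, was lower by a log2 difference of -2.53 ± 0.16 (adjusted p = 9.2e-05). In EC given AS-Tspan8 exosomes, set against untreated EC, no feature of 9025 was called (0%), and so no gene of these 4 lists was. Fibroblast markers moved in the same contrast, with 11 of 14 called lower in tumour cells and summed signals of 3750 to 4618 in tumour cells against 68392 to 85007 on the EC arrays. Their part in the proteasome differences was not tested, and in bulk samples fewer cells of a type and less RNA per cell cannot be told apart.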

How the data were processed

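The 12 arrays hold 22523 probes. The authors deposited signal intensity per probe before normalization, per the file headers, each beside its detection p-value; per the labels, total RNA was labelled with Cy3 and hybridized by the Illumina protocol. The labels and headers name no scanner software. The deposited processed intensity values, whose method is not stated, served as an alternative. Of the probes, 13793 had 1 gene symbol in GEO's platform annotation and 8730 had none. The values were corrected by normexp (limma 3.58.1, R 4.3.3) with negative controls inferred from the detection p-values and an offset of 16, quantile normalized within a family of arrays (6 EC, 6 tumour or 8 cell arrays) and set to log2. A feature was kept if its detection p was under 0.01 on 2 or more of a family's arrays, which left 9025, 9434 and 9972 features. The brightest probe stood for a gene.

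Group means were compared with lmFit and eBayes, with Benjamini-Hochberg adjustment over all features and calls at 0.05. The fits were tested on simulated data. The cell lines have 1 array each: between them a log2 difference of 1 is given with no test, and elsewhere each is assumed to vary like the replicated arrays. A group with no detection is given as a bound ("at least"), on the normalized scale: the brighter group's mean over, on each array, the higher of the lowest detected level and the gene's own. The number of arrays limits the precision.

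Named with values are the immune and catalytic beta subunits, Psme1 and Psme2, by signal or difference. Beside them, each comparison names up to 4 called genes in each direction, or else 2 of lowest p, and the cell lines the 2 highest and lowest. Genes detected on all 4 exosome arrays and up to 3 genes of other lists are named too. A few more examples of a class were chosen after their values were seen. The genes and lists were chosen with earlier results of these data known. Alternatives were no background correction, median scaling, no scaling, other filters, the mean of probes, the processed values, all 12 arrays together, leaving out arrays and a replicate block.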

Additional observations from a re-analysis of the deposited data

How the results depend on the processing

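No proteasome gene was called in EC given exosomes under any alternative run. Without scaling the median log2 difference in EC was -0.16 for AS-Tspan8 exosomes against untreated EC and -0.10 for AS-Tspan8 against AS exosomes, where the median of all features moved to -0.13 and -0.10. AS-Tspan8 against AS exosomes gave 0 calls under the alternatives run, except 1 lower gene when detection on every array of a group was required. That gene, Psmd1, passed this filter through the AS exosomes alone, and 0.34% of features were called lower there. Without scaling AS-Tspan8 against AS cells gave 6 genes past a difference of 1 (34.3% of features) and a median of 0.75. For tumour cells against untreated EC, 37 genes were called higher with median scaling (median 1.09) and 38 without scaling (median 1.22), and 11 without either untreated replicate. In that contrast 1 gene, Psmb10, was called lower without background correction (23.9% of features), without the filter (10.6%) and in the deposited processed values (23.6%).

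Exosomes against cells depended on the scaling, and with median or no scaling 84.5% to 88.7% of all features were called lower in these 3 contrasts. With median scaling 0 genes were called higher and 39 lower (median -6.26), and without scaling 0 and 38 (median -6.43). Psmc3 and Psme4 then turned to -3.03 and -3.99 (median scaling) and to -3.19 and -4.16 (no scaling). Without the filter 6 were called lower, where 14.9% of features were. Leaving out 1 array gave 1 to 2 higher and 3 to 27 lower. AS exosomes against AS cells gave 38 lower with median scaling (median -5.33), 39 without scaling (median -5.26), 0 without background correction, 1 in the processed values, 1 with all 12 arrays together and 1 to 8 without 1 array. It gave 1 higher without the filter (2.43% of features) and 1 when detection on every array of a group was required (7.60%). AS-Tspan8 exosomes against AS-Tspan8 cells gave 39 lower with median scaling (median -7.21) and without scaling (median -7.61). Higher calls there were 0 with either scaling, without background correction, without the filter and in the processed values. In these settings 3.08% to 8.83% of features were called higher. Without 1 array it gave 0 higher and 0 lower, as for all features (0%), with medians from -2.87 to -1.90. The difference between the lines gave 1 lower gene with median scaling (11.46% of features), 7 without scaling (47.5% of features, median -2.17), and medians from -1.77 to -0.46 without 1 array. At a detection p under 0.05, 23 genes were detected on both AS-Tspan8 exosome arrays and 22 on all 4 exosome arrays. The cause of these shifts was not tested.

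Arrays with the same replicate number deviated together in EC (correlations of 0.375 to 0.555 between groups), but the labels give no shared batch and there are only 2 numbers. With the replicate number as a block no proteasome gene was called in any EC comparison, nor in AS-Tspan8 against AS exosomes (0 called, correlation -0.334). The crossed pairing of the exosome arrays, chosen after seeing the data, also gave 0 calls. Dim signals limit the exosome comparisons, where 10 of the 43 genes were detected on none of the 4 exosome arrays (detection p under 0.01).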
